A study of Homo sapiens with 4 samples.

Results

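The 43 genes described here drive the cell cycle and the copying of DNA. They were taken by name from the 50868 genes of the count tables, and all 43 were found. They cover the G1 cyclins, the machinery that licenses and copies DNA, the enzymes that supply deoxynucleotides, CDK1 with its cyclins and phosphatases, the mitotic kinases, the spindle checkpoint and the motors and kinetochore proteins of mitosis. The proliferation markers MKI67 and TOP2A are also among them. They were read in A549, a human lung adenocarcinoma line. RNA was sequenced from 2 libraries of control cells, and from 2 libraries of cells that overexpressed human USP12 from a lentiviral vector. The study describes its A549 control cells as vector controls, and whether the cells of either group were a clone or a pool is not stated in the sources used here. USP12 is a deubiquitinase, an enzyme that removes ubiquitin from other proteins. Neither time nor drug treatment differed between the groups, as far as the sources used here state. Nothing in the labels says that the libraries of a group came from separate cultures, so p-values measure only the spread between these libraries, which may be technical.

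A dividing cell prepares its chromosomes for copying in G1, when ORC, CDC6 and CDT1 load the MCM2 to MCM7 ring onto origins. E2F factors, held back by the RB family until cyclin D and cyclin E kinases act, drive the transcription of these licensing genes and of the enzymes that make deoxynucleotides. The genes of G2 and mitosis peak later, under the DREAM complex and the B-MYB and FOXM1 factors, which act through CHR and CCAAT elements in their promoters. The summed level of such genes is widely used as a readout of how many cells of a culture are cycling. In bulk RNA, fewer cells in a phase and less RNA of a gene per cell cannot be told apart.

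The libraries held 14314778 and 16305356 counts (control replicates 1 and 2) and 14431323 and 14280081 counts (USP12 replicates 1 and 2). Levels are given as CPM, which are counts made comparable between libraries of unequal size with edgeR's TMM factors. A gene with 3 counts would read 0.166 to 0.227 CPM, a floor that covers counting error only. USP12 itself had 15.2 and 34.4 CPM in the controls, against 1745 and 2235 CPM under USP12, as the labels say. The heading of control replicate 1 carried another date-like prefix than those of the other 3 libraries, and what sets it apart cannot be told apart from that sample itself. Values are therefore given also against each control library alone. The epithelial markers fixed for A549 (8 genes, all detected, most of it KRT8, KRT7 and KRT18) summed to 12910 and 7493 CPM without and 7323 and 6802 CPM with added USP12. Markers of fibroblasts summed to 18.0 and 2.94 CPM in the controls and to 20.9 and 16.7 CPM under USP12 (6 genes, DCN at 0 in all 4 libraries). Those of leukocytes summed to 112 and 53.03 CPM in the controls and to 76.9 and 59.8 CPM under USP12, nearly all of it CD68 and CD14 (6 genes, CD3E at 0 in all 4 libraries, PTPRC at 0 or 1 count). Endothelial markers, led by CDH5 and PECAM1, summed to 15.4 and 8.59 CPM in control cells and 0.504 and 1.32 CPM in USP12 cells (4 genes, VWF and KDR at 3 counts or fewer). The part of these cell type markers in the results was not tested.

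Most of the 43 genes had higher levels in the USP12 libraries, with a group of replication genes at the top and MKI67 and CDC25B as exceptions, but no gene passed the test that corrects for all genes. Of the 43, 34 had a higher and 9 a lower mean level in USP12 cells, and the median log2 fold change was 0.45, against -0.06 over the 15222 genes tested. With edgeR's quasi-likelihood test and Benjamini-Hochberg adjustment, 0 of the 43 genes had an adjusted p under 0.05, as did 0% of all tested genes. The smallest adjusted p among the 43 was 0.332, that of MKI67. With the same test, the added gene USP12 had a log2 fold change of 6.32 and an adjusted p of 0.0975, the smallest of all tested genes. This test therefore called not even USP12. DESeq2's Wald test and edgeR's exact test each called 1 of the 43, MKI67. Over all 15222 genes, DESeq2's test called 133 higher and 273 lower, and the exact test called 167 and 262. At an unadjusted p of 0.05 or less, 4 genes were higher (MCM4, MCM5, GINS2 and TYMS), which is 9.3% of the 43 against 3.04% of all tested genes. At the same threshold 2 genes were lower (MKI67 and CDC25B), which is 4.65% against 4.55%. Without control replicate 1, 13 genes were higher and 7 lower at this threshold, beside 13.5% and 14.7% of the genes tested in that fit. With control replicate 2 left out it was 31 and 3, beside 24% and 22.3%. Without USP12 replicate 1 the median log2 fold change of the 43 genes was 0.52, and without USP12 replicate 2 it was 0.38.

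In 23 of the 43 genes (53.5%) both USP12 libraries were above both control libraries, against 19.5% of all tested genes. In 2 of the 43 (4.65%) both were below, against 17% of all tested genes. The remaining 18 overlapped between the groups. With 2 libraries a group, an exact permutation test of a single gene cannot go below p = 0.333. The 43 genes share regulators and libraries and are not independent of each other.

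**Figure D1:**
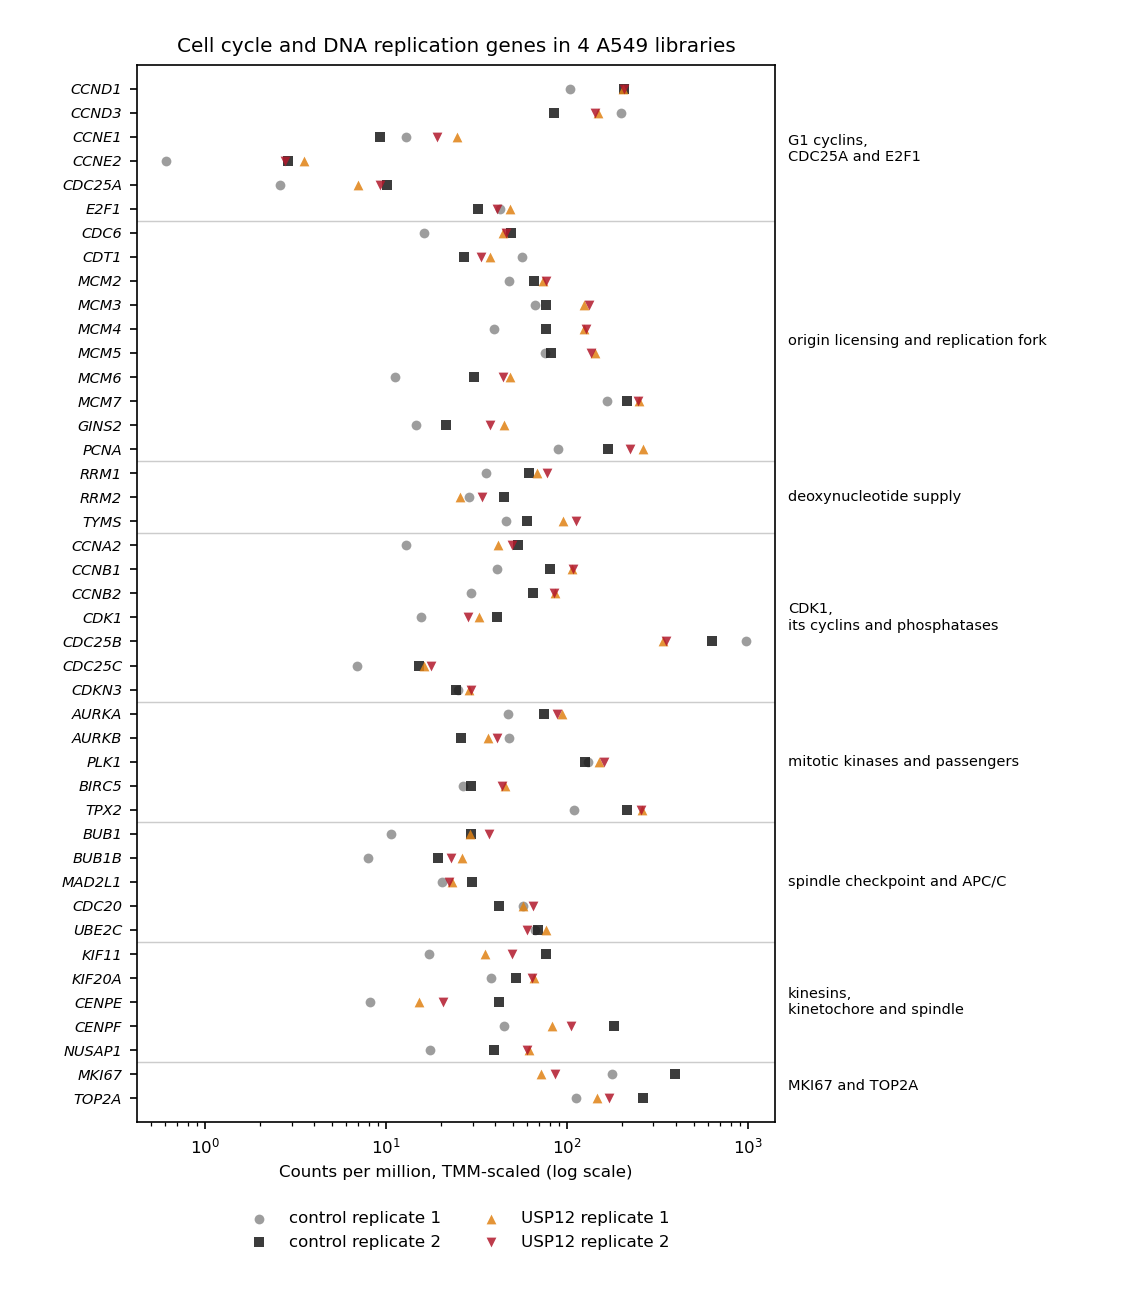
Level of each of the 43 genes in the 4 libraries, in TMM-scaled CPM on a log axis, by functional group (grey circles, control replicate 1; black squares, control replicate 2; orange upward and red downward triangles, USP12 replicates 1 and 2). The USP12 triangles lie close together and right of both control symbols for MCM2 to MCM7, and left of both for CDC25B and MKI67, whereas the 2 control symbols are far apart for CENPE (8.17 and 42.2 CPM) and KIF11 (17.3 and 76.8 CPM).

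The control libraries differed from each other in these genes by more than the USP12 libraries did. Control replicate 2 was above control replicate 1 in 34 of the 43 genes, with a median log2 difference of 0.80, whereas the median of all tested genes was 0.01. Between the USP12 libraries the median log2 difference was 0.02, and the widest difference of any of the 43 was 0.50. The median log2 fold change of the 43 genes was accordingly 0.27 against control replicate 2 alone and 1.00 against control replicate 1 alone, beside 0.02 and 0.09 for all tested genes. Summed over the 43 genes, the level was 3099 and 3940 CPM in the controls, against 3702 and 3768 CPM under USP12. The summed level of the USP12 libraries thus lay between those of the control libraries. That position depended on CDC25B, the largest single part of the sum in every library. CDC25B alone gave 977 and 631 CPM of the control sums and 341 and 352 CPM of the USP12 sums. The sum therefore does not describe most of the 43 genes.

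Genes of origin licensing and the replication fork had the highest median of the functional groups, and none passed the adjusted test. The median log2 fold change of these 10 genes was 0.84 (0.57 against control replicate 2 alone). In 8 of the 10, both USP12 libraries were above both control libraries, against 19.5% of all tested genes. The 6 subunits of the MCM2 to MCM7 helicase, the ring that unwinds DNA ahead of the polymerases, all showed this separation. MCM4 had 39.5 and 76.5 CPM without and 124 and 127 CPM with added USP12. Both USP12 libraries were thus above the higher control, and the log2 fold change was 1.11 (standard error 0.44, unadjusted p = 0.0444, adjusted p = 0.634, edgeR's quasi-likelihood test). MCM5 (chr22:35400134-35425431) had 75.0 and 81.2 CPM in control cells and 143 and 136 CPM in USP12 cells. Its controls were close to each other, and the log2 fold change was 0.84 (standard error 0.34, unadjusted p = 0.0485, adjusted p = 0.654, same test).

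MCM3 was alike, with 66.6 and 76.9 CPM in the controls, against 124 and 132 CPM under USP12, at an unadjusted p of 0.0523 (adjusted p = 0.664, same test). MCM6 had 11.2 and 30.7 CPM without and 48.6 and 44.4 CPM with added USP12. Its controls were far apart, so that a log2 fold change of 1.15 came with an unadjusted p of 0.0883 (adjusted p = 0.776, same test). MCM2 and MCM7 had the smallest differences of the ring, with log2 fold changes of 0.41 and 0.38. MCM2 stood at 47.4 and 65.7 CPM in control cells and 73.5 and 76.7 CPM in USP12 cells. MCM7 stood at 167 and 215 CPM in control cells and 248 in each USP12 library. In GENCODE release 44 the microRNA gene MIR93 overlaps an exon of some annotated MCM7 transcript on the same strand. Whether that exon is part of the canonical transcript was not examined. Over the 6 subunits the median log2 fold change was 0.84 with both controls, 0.66 against control replicate 2 alone and 0.95 against control replicate 1 alone.

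GINS2 had the largest difference upward of all 43 genes. It encodes a subunit of GINS, which joins CDC45 and the MCM ring in the active helicase, and lies at chr16:85676198-85690073, where GSE1 overlaps its exons on the other strand. Its level was 14.6 and 21.4 CPM in control cells and 44.6 and 37.4 CPM in USP12 cells. The groups did not overlap, and the log2 fold change was 1.19 (standard error 0.44, unadjusted p = 0.0337, adjusted p = 0.570, edgeR's quasi-likelihood test). PCNA, the sliding clamp of the replicative polymerases, had 88.8 and 167 CPM in the controls, against 263 and 222 CPM under USP12. Per kilobase of transcript it was the most abundant of the 10 genes in all 4 libraries, at 69.6 and 131 CPM per kilobase in the controls and 206 and 174 in the USP12 libraries.

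In CDC6 and CDT1, which load the ring, the groups overlapped. CDC6 had 16.2 and 48.7 CPM without and 44.2 and 45.8 CPM with added USP12, so that both USP12 values lay just under the higher control. CDT1, the partner that brings the MCM ring to CDC6 and ORC, had 56.4 and 26.9 CPM in control cells and 37.7 and 33.6 CPM in USP12 cells. CDC6 and CDT1 thus differed between the controls in opposite directions. The log2 fold change of CDT1 was -0.23, and 0.17 once GC content was corrected for.

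Of the 3 genes of deoxynucleotide supply, TYMS and RRM1 were above both controls and RRM2 was not, against 19.5% of all tested genes above both. TYMS encodes thymidylate synthase, which makes thymidylate from deoxyuridylate. It had 46.2 and 60.0 CPM in the controls, against 94.7 and 112 CPM under USP12. The groups were well apart, with a log2 fold change of 0.96 (standard error 0.37, unadjusted p = 0.0402, adjusted p = 0.605, edgeR's quasi-likelihood test). It lies at chr18:657653-673578, where ENOSF1 and TYMSOS share exons on the opposite strand, and whether strand was used when counting is not stated in the sources used here. RRM1, the large subunit of ribonucleotide reductase, had 35.4 and 61.8 CPM without and 68.3 and 77.6 CPM with added USP12. RRM2, the small subunit and the one whose level follows S phase, had 28.7 and 44.9 CPM in control cells and 25.6 and 33.7 CPM in USP12 cells. The level of TYMS relative to RRM2 was 1.61 and 1.34 in control cells and 3.71 and 3.33 in USP12 cells, a pair chosen after the values were seen.

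Promoters of cell cycle genes are known to carry elements to which E2F and the mitotic regulators bind. RefSeq promoter windows on GRCh38.p14, from 250 bases before to 50 bases after the start, were matched by symbol for 35 of the 43 genes. The 8 others were AURKA, BIRC5, CCND1, CCNE2, MCM4, MCM5, TPX2 and UBE2C. Both strands of the 250 bases before the start were searched for the E2F motif (TTTCCCGC or TTTCGCGC or TTTGCCGC or TTTGGCGC), for the CHR motif (TTTGAA) and for the CCAAT box (CCAAT). The matches can overlap each other. The 4 windows below show 3 replication genes with E2F matches and MKI67, which had CHR and CCAAT matches and no E2F match. They run from 150 to 11 bases before the start, 5′ to 3′ on the strand of the gene, with every match that lies wholly inside in capitals. The positions are chr18:657503-657642 on the plus strand for TYMS and, on the minus strand, chr2:135876454-135876593 for MCM6, chr20:5126633-5126772 for PCNA and chr10:128126434-128126573 for MKI67.
TYMS: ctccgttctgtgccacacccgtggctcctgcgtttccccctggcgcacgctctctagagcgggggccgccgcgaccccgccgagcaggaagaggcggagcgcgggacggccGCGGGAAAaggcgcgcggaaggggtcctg
MCM6: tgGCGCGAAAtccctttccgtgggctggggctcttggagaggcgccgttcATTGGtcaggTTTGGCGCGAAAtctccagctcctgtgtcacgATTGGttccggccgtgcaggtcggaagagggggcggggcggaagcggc
PCNA: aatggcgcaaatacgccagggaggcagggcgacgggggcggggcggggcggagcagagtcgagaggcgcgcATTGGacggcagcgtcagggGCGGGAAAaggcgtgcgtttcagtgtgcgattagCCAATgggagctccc
MKI67: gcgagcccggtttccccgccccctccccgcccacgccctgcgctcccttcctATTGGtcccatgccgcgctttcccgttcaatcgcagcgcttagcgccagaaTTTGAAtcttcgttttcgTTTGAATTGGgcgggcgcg

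In TYMS the E2F letters began 39 bases before the start, in PCNA 59 bases before it and in MCM6 at 152, 148, 90 and 86 bases before it, where the motif is read on both strands. In MKI67 the CHR letters began 47 and 29 bases before the start, and the nearer one overlapped a CCAAT box. E2F letters were present in at least 1 window of 11 of the 35 genes (31.4%), beside 2.79% of 35116 single windows. The 11 were CDC25A, CDK1, CDT1, E2F1, GINS2, MCM3, MCM6, MCM7, NUSAP1, PCNA and TYMS. CHR letters were present in 11 of 35 genes (31.4%, beside 13.3% of windows), among them PLK1, CDC20, KIF11, TOP2A and MKI67. A CCAAT box was present in 29 of 35 genes (82.9%, beside 32.0% of windows). A gene can have more than 1 window, so shares of genes and of windows are not like for like. A match is a description of the letters and not evidence of binding.

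The 11 genes with E2F letters had a median log2 fold change of 0.83, and 7 of them were above both controls. The 24 without had a median of 0.29, and 11 of them were above both controls. Over all tested genes 19.5% were above both controls. Against control replicate 2 alone these medians were 0.54 and 0.18. For the CHR the medians were 0.29 with and 0.43 without the letters. For the CCAAT box they were 0.36 with and 0.63 in the 6 genes without. No test was made of these differences.

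**Figure D2:**
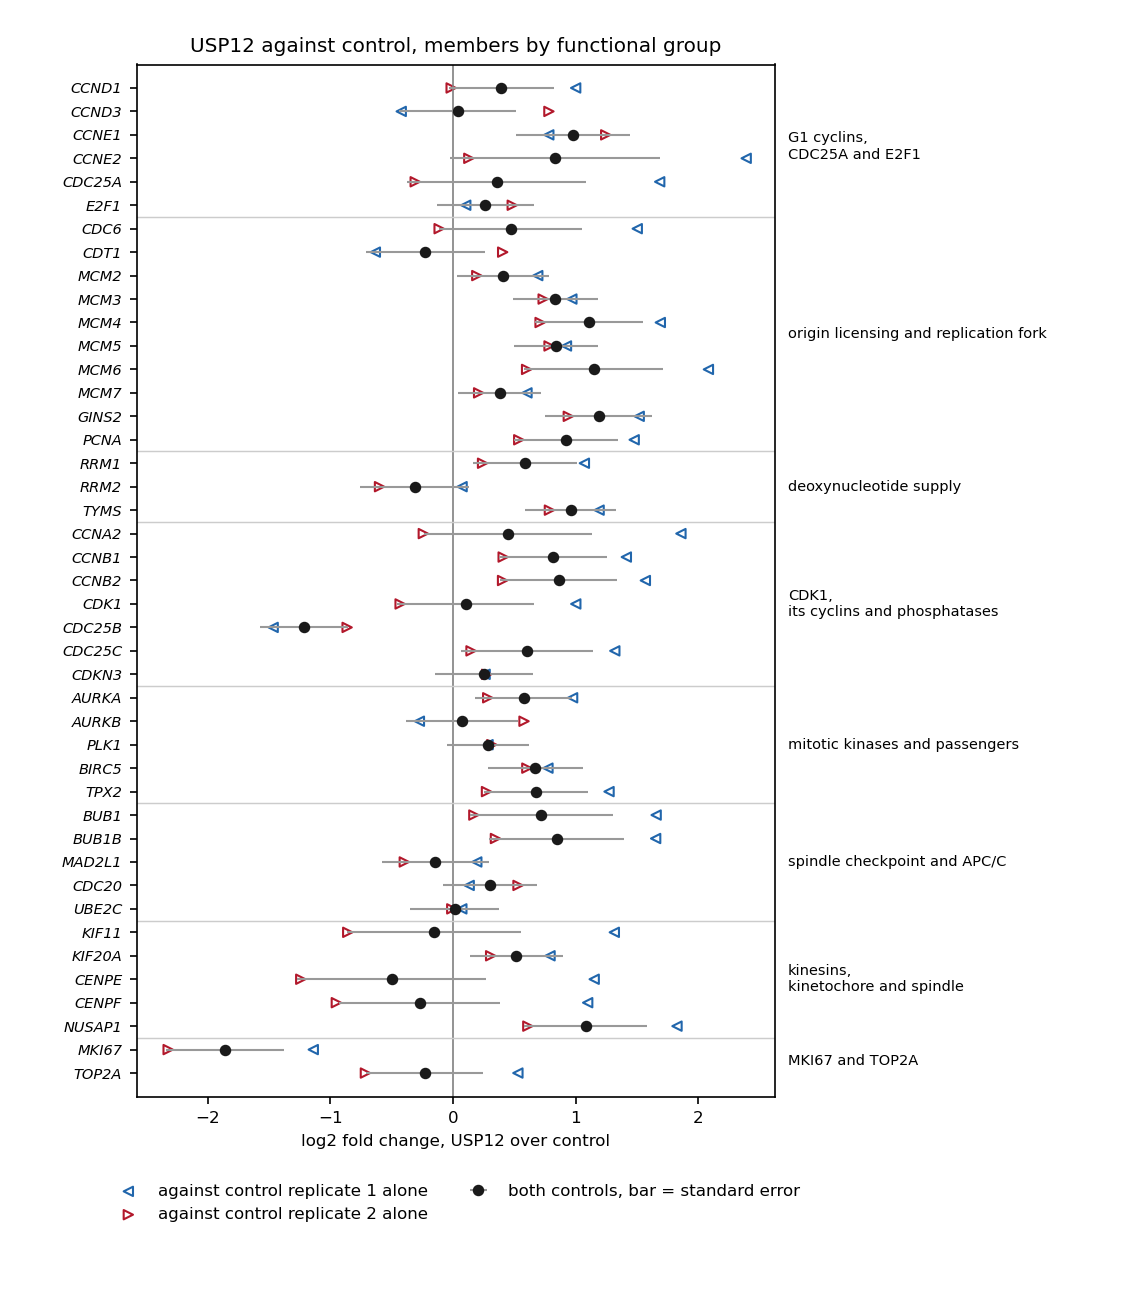
Log2 fold change of each gene, USP12 over control, with both controls (black, bar 1 standard error) and against control replicate 1 (blue left triangles) or control replicate 2 alone (red right triangles). The MCM genes, GINS2, PCNA and TYMS lie right of 0 against either control, CDC25B and MKI67 lie left of 0 against either, and CENPE runs from -1.24 to 1.15.

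Among the 6 genes of the G1 to S step, CCNE1 alone was above both controls, a share close to the 19.5% of all tested genes. CCNE1 encodes cyclin E1, the partner of CDK2 at the start of S phase. It had 12.9 and 9.20 CPM in the controls, against 24.6 and 19.1 CPM under USP12. The log2 fold change was 0.98 (standard error 0.46, unadjusted p = 0.0769, adjusted p = 0.748, edgeR's quasi-likelihood test), and 1.25 against control replicate 2 alone. Its relative CCNE2 was far scarcer, at 0.605 and 2.88 CPM without and 3.53 and 2.77 CPM with added USP12. The value of control replicate 1 for CCNE2 rested on 8 counts, and the groups overlapped.

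The D cyclins, which start the phosphorylation of RB in G1, gave no separation. CCND1 had 104 and 207 CPM in control cells and 203 and 206 CPM in USP12 cells, so that 3 of the libraries were within a few CPM of each other and control replicate 1 stood well under them. CCND3 went the other way between the controls, with 199 and 84.8 CPM, and had 149 and 143 CPM in the USP12 libraries. E2F1, the activator of the S phase genes, had 42.5 and 32.0 CPM in the controls, against 48.2 and 41.2 CPM under USP12. CDC25A, the phosphatase that activates CDK2, had 2.57 and 10.1 CPM without and 6.98 and 9.28 CPM with added USP12. In both genes the groups overlapped.

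Of the 7 genes of CDK1, its cyclins and phosphatases, 4 were above both controls (CCNB1, CCNB2, CDC25C and CDKN3) and CDC25B was below both. Over all tested genes 19.5% were above both and 17% below both. Cyclin B1 and cyclin B2 carry CDK1 into mitosis. CCNB1 had 41.0 and 80.7 CPM in control cells and 106 and 108 CPM in USP12 cells. CCNB2 had 29.3 and 64.4 CPM in the controls, against 86.1 and 84.2 CPM under USP12. Against control replicate 2 alone, the log2 fold changes of both were close, at 0.41 and 0.40. CDK1 itself had 15.5 and 41.1 CPM without and 32.7 and 28.2 CPM with added USP12, between the controls. CDKN3, a phosphatase that acts on CDKs, had 24.8 and 24.2 CPM in the controls, against 28.8 and 29.6 CPM under USP12, close to each other in every library. CCNA2, the cyclin of S phase and G2, lay between the controls like CDK1, with 12.8 and 53.9 CPM in control cells and 41.5 and 49.5 CPM in USP12 cells.

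Of the 3 CDC25 phosphatases, which remove the inhibitory phosphates from CDKs, CDC25B was lower on average in USP12 cells and the others higher. The log2 fold changes of CDC25A and CDC25C were 0.36 and 0.605 (standard errors 0.73 and 0.54). Against control replicate 2 alone they were -0.31 and 0.15, so no clear direction was seen for these genes. CDC25B (chr20:3786772-3806121) had 977 and 631 CPM in the controls, against 341 and 352 CPM under USP12. Both USP12 libraries were well under the lower control, with a log2 fold change of -1.21 (standard error 0.36, unadjusted p = 0.0142, adjusted p = 0.421, edgeR's quasi-likelihood test). It was -0.86 against control replicate 2 alone and -1.47 against control replicate 1 alone. Per kilobase of transcript, CDC25B was the most abundant of the 43 genes in the controls, at 313 and 202 CPM per kilobase, and stood below PCNA in the USP12 libraries, at 109 and 113. CDC25C, which acts on CDK1 at mitotic entry, had 6.89 and 15.2 CPM without and 16.1 and 17.6 CPM with added USP12. The ratio of CDC25B to PLK1 in CPM was 7.51 and 5.05 in control cells and 2.27 and 2.19 in USP12 cells, again a pair chosen after the values were seen.

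The mitotic kinases and their partners had higher mean levels in USP12 cells, by small margins. In 4 of the 5 genes both USP12 libraries were above both controls, against 19.5% of all tested genes, and AURKB was the exception. TPX2, the spindle factor that activates Aurora A, had 109 and 214 CPM in control cells and 260 and 257 CPM in USP12 cells. Its log2 fold change of 0.68 was the largest of the 5 (standard error 0.43, unadjusted p = 0.162, adjusted p = 0.864, edgeR's quasi-likelihood test). AURKA, the kinase of spindle poles, had 47.2 and 74.9 CPM in the controls, against 93.7 and 88.2 CPM under USP12. BIRC5, which encodes survivin of the chromosomal passenger complex, had 26.6 and 29.4 CPM without and 45.4 and 43.6 CPM with added USP12. For BIRC5 the controls differed little, and the log2 fold change was 0.60 against control replicate 2 alone and 0.77 against control replicate 1 alone. PLK1, the Polo kinase of mitotic entry, had 130 and 125 CPM in control cells and 150 and 161 CPM in USP12 cells, a log2 fold change of 0.29. AURKB, the kinase of the same passenger complex, had 47.5 and 25.8 CPM in the controls, against 36.4 and 40.7 CPM under USP12.

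The spindle checkpoint genes and the APC/C genes, whose products hold back and then release the separation of chromatids, gave a median log2 fold change of 0.30 over 5 genes. BUB1B, which encodes the checkpoint protein BUBR1, had 7.95 and 19.3 CPM without and 26.1 and 22.9 CPM with added USP12. Its log2 fold change was 0.84 (standard error 0.55, unadjusted p = 0.177, adjusted p = 0.869, edgeR's quasi-likelihood test), and PAK6 shares exons with it on the same strand. CDC20, the activator of the APC/C, was above both controls by less than 1 CPM in USP12 replicate 1 (56.8 and 42.3 CPM in the control libraries, 57.2 and 64.8 CPM in the USP12 libraries). BUB1, the kinetochore kinase, had 10.7 and 29.4 CPM in control cells and 28.9 and 37.1 CPM in USP12 cells. MAD2L1, which inhibits CDC20, had 20.3 and 30.0 CPM in the controls, against 23.3 and 22.2 CPM under USP12. UBE2C, the E2 enzyme of the APC/C, had 66.1 and 68.7 CPM without and 76.2 and 60.1 CPM with added USP12. In BUB1, MAD2L1 and UBE2C the groups overlapped. BUB1B and CDC20 were above both controls, against 19.5% of all tested genes.

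Motors and kinetochore genes split, with NUSAP1 and KIF20A above both controls, against 19.5% of all tested genes. NUSAP1, a spindle microtubule protein, had 17.4 and 39.7 CPM in control cells and 61.3 and 59.8 CPM in USP12 cells. Its log2 fold change was 1.08 (standard error 0.50, unadjusted p = 0.0735, adjusted p = 0.739, edgeR's quasi-likelihood test), and exons of OIP5-AS1 overlap it on the same strand. KIF20A, a kinesin of cytokinesis, had 38.1 and 52.4 CPM in the controls, against 65.3 and 64.1 CPM under USP12. KIF11, CENPE and CENPF lay between the controls instead. KIF11, the motor that pushes spindle poles apart, had 17.3 and 76.8 CPM without and 35.1 and 49.5 CPM with added USP12. CENPF, a large kinetochore protein, had 44.7 and 182 CPM in control cells and 82.4 and 105 CPM in USP12 cells.

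For the kinetochore motor CENPE, the sign depended on the control. It had 8.17 and 42.2 CPM in the controls, against 15.1 and 20.5 CPM under USP12. Against control replicate 1 alone its log2 fold change was 1.15 and against control replicate 2 alone it was -1.24. These fits assume that the single control library varies like the USP12 libraries. The sign of CENPF depended on the control as well, with 1.10 and -0.95.

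MKI67, which encodes the Ki-67 antigen that coats mitotic chromosomes and is the routine stain for proliferating cells, had the largest difference of all 43 genes. It lies at chr10:128096659-128126423 and had 177 and 394 CPM without and 71.9 and 85.6 CPM with added USP12. Both USP12 libraries were far under the lower control. The log2 fold change was -1.86 (standard error 0.48, unadjusted p = 0.00801, adjusted p = 0.332, edgeR's quasi-likelihood test), a level 3.63-fold higher in the controls. It was -2.32 against control replicate 2 alone and -1.14 against control replicate 1 alone. TOP2A, the topoisomerase that untangles sister chromatids and a marker of the same phases, had 113 and 262 CPM in control cells and 147 and 171 CPM in USP12 cells. TOP2A lay between the controls, with a log2 fold change of -0.23.

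Relative to other genes of the same phases, MKI67 was lower in the USP12 libraries. The ratio of MKI67 to TOP2A in CPM was 1.57 and 1.51 in control cells and 0.489 and 0.50 in USP12 cells. This ratio was nearly the same in both controls, although either gene differed between them by more than 2-fold. Against PLK1 the ratio was 1.36 and 3.16 in control cells and 0.478 and 0.533 in USP12 cells. Against TPX2 it was 1.62 and 1.84 in control cells and 0.277 and 0.334 in USP12 cells. Over the 42 other genes, which include G1 genes such as CCND1, the ratio of MKI67 was lower in both USP12 libraries than in both controls for 41, with CDC25B as the exception. All 41 ratios share the levels of MKI67, which were themselves lower in both USP12 libraries than in both controls. Any gene above both controls must then give a lower ratio, so the 41 are not separate results. These ratios were chosen after the values were seen and were not tested.

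**Figure D3:**
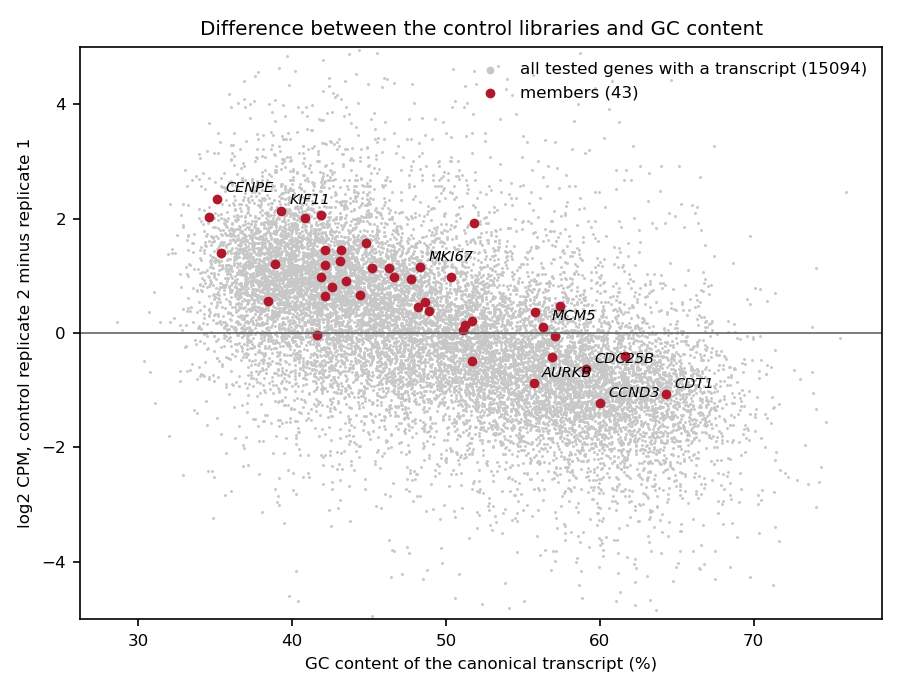
Log2 difference between the control libraries (replicate 2 minus replicate 1, CPM) against the GC content of the canonical transcript in percent, for 15094 tested genes (grey) and the 43 genes (red). AT-rich genes such as CENPE and KIF11 lie high and GC-rich genes such as CDT1 and CCND3 lie below 0, and 18 genes fall outside the axis limits of 5.

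The genes that differed between the control libraries were ordered by GC content. Over the 43 genes the Spearman correlation of that difference with transcript GC content was -0.75, and over 15094 tested genes it was -0.60, as descriptions across genes that share the 2 libraries. With transcript length it was 0.54 over the 43 and 0.34 over all. The USP12 fold change was not ordered by GC content within the 43 (Spearman correlation -0.002), whereas the difference between the USP12 libraries and control replicate 2 alone was (0.46). With transcript length the USP12 fold change of the 43 had a Spearman correlation of -0.25 and a Pearson correlation of -0.59, against 0.05 and 0.02 over all tested genes, and the GC offset left the Pearson value of the 43 at -0.61. Against control replicate 2 alone the values for the 43 were -0.51 and -0.77. MKI67, CENPF and CENPE have the longest transcripts of the 43, at 12716, 10290 and 8541 bases, and all 3 had lower mean levels in USP12 cells. The part of length in the results was not tested. In the 19 genes with under 45% GC, control replicate 2 was above control replicate 1 by a median log2 of 1.27. In the 8 genes with 45% to 50% the median was 0.96 and in the 16 genes with 50% or more it was 0.00. The median log2 fold change of USP12 over both controls was 0.47, 0.77 and 0.33 in these groups, in order of GC content. Against control replicate 2 alone it was 0.13, 0.36 and 0.44.

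With a GC content offset fitted in each library, an alternative chosen after the data were seen, the median log2 fold change of the 43 genes was 0.44. The unadjusted p was then 0.05 or less for 10 genes with higher levels, namely CCNE1, MCM3, MCM4, MCM5, MCM6, GINS2, PCNA, TYMS, CCNB1 and NUSAP1, and for the same 2 with lower levels, CDC25B and MKI67. Over all genes tested in that fit, 4.59% were higher and 6.56% lower at this threshold. None of the 43 had an adjusted p under 0.05 with edgeR's quasi-likelihood test in that fit. The log2 fold changes of MCM4 and MKI67 were 0.96 and -1.99 with the offset.

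A list of 152 further genes of the same pathways was read from the same fit, of which 149 were tested, and 0 had an adjusted p under 0.05. At an unadjusted p of 0.05 or less, 5 were higher and 1 was lower, which is 3.36% and 0.671% of the 149 against 3.04% and 4.55% of all tested genes. DESeq2's Wald test and edgeR's exact test each called 2 of the 149, ZMAT3 and PLK2. Over all 15222 genes, DESeq2's test called 133 higher and 273 lower, and the exact test called 167 and 262. In the list of replication genes (46 genes, such as ORC, polymerase and RFC subunits), none passed either threshold and the median log2 fold change was 0.39. Both USP12 libraries were above both controls in 19 of them (41.3%) and below in 1 (2.17%), against 19.5% and 17% of all tested genes. In the list of mitosis genes (58 genes, such as condensin and kinetochore subunits), none passed either threshold, the median was 0.26, and 21 were above (36.2%) and 1 below (1.72%). Against control replicate 2 alone these medians were 0.10 and 0.04.

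Of the 24 CDK, RB and E2F genes tested, E2F3 was higher at an unadjusted p of 0.0186 (adjusted p = 0.455, edgeR's quasi-likelihood test). E2F3, an activator E2F like E2F1, had 7.34 and 7.37 CPM in the controls, against 17.6 and 21.9 CPM under USP12. CCND2 of that list had too few counts to be tested. The 5 CDK inhibitors tested all had lower mean levels in USP12 cells with both controls, though the groups overlapped in 3. In the other 2 (40%) both USP12 libraries were below both controls, against 17% of all tested genes. Against control replicate 2 alone the log2 fold change was 1.36 for CDKN1A and 0.47 for CDKN1C. For CDKN2D, CDKN1B and CDKN2C it was -0.79, -0.695 and -0.39. CDKN2D, which blocks CDK4 and CDK6, had 9.99 and 3.60 CPM without and 2.09 and 2.08 CPM with added USP12 (log2 fold change -1.70, unadjusted p = 0.0487, adjusted p = 0.654, same test).

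CDKN1B, which encodes p27, had 56.2 and 60.4 CPM in control cells and 33.6 and 40.9 CPM in USP12 cells (log2 fold change -0.65, unadjusted p = 0.135). CDKN1A, which encodes p21 and is a p53 target, had the widest difference between the controls of the 5 tested CDK inhibitors, with 593 and 97.1 CPM, and had 256 and 243 CPM in the USP12 libraries. CDKN2C, a relative of CDKN2D, had 37.5 and 48.8 CPM in the controls, against 37.7 and 36.6 CPM under USP12. CDKN1C had between 6 and 32 counts in the 4 libraries. CDKN2A and CDKN2B, which A549 is known to have lost by deletion, had 0 counts in all 4 libraries.

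Among 16 genes of p53 targets and growth arrest, 4 were higher at an unadjusted p of 0.05 or less, which is 25% against 3.04% of all tested genes, and none was lower, against 4.55%. PLK2, a Polo kinase induced by stress, had 39.1 and 38.3 CPM without and 115 and 122 CPM with added USP12 (log2 fold change 1.61, adjusted p = 0.280, edgeR's quasi-likelihood test). ZMAT3, a p53-induced RNA-binding protein, had 9.91 and 5.71 CPM in control cells and 27.6 and 39.4 CPM in USP12 cells (2.10, adjusted p = 0.315, same test). SESN1, a sestrin that restrains mTORC1, had 1.74 and 3.49 CPM in the controls, against 10.4 and 9.35 CPM under USP12 (1.90, adjusted p = 0.436, same test). TP53INP1 had 3.48 and 11.9 CPM without and 23.5 and 24.3 CPM with added USP12 (1.63, adjusted p = 0.648, same test). The list as a whole was split, with 8 genes higher and 8 lower and a median log2 fold change of 0.18. Both USP12 libraries were above both controls in 7 of the 16 (43.8%) and below in 4 (25%). Over all tested genes these shares were 19.5% and 17%.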

How the data were processed

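Stranded mRNA libraries, 4 in all, from A549 cells were sequenced by the authors, and the deposited values are raw counts per gene. The authors removed adaptors and ribosomal RNA reads with Seqtk, mapped to GRCh38 with HISAT2 (version 2.0.4 in the submitters' processing notes) and counted uniquely mapped fragments with StringTie (version 1.3.0). The annotation release and the strand setting of the counting are not given in the sources used here, so genes that share exons with another gene (3 of the 43 on the same strand and 13 on the opposite strand in GENCODE release 44) are uncertain.

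The counts of 2 control and 2 USP12 libraries were compared in R 4.3.3 with edgeR 4.0.16 (filterByExpr, TMM, glmQLFit and glmQLFTest) over 15222 genes, with Benjamini-Hochberg adjustment over all of them. All 43 genes passed the filter. The prior degrees of freedom were 4.15. Standard errors are approximate, from the log2 fold change over the root of F. TMM factors were also applied to the CPM, and log2 differences between single libraries used a prior count of 2. The procedure was run on simulated counts with changes larger than any of the 43 genes showed. Those counts held no difference between libraries ordered by GC content. That run therefore does not show how the procedure does with changes of the size seen here. A fold change against 1 control library comes from the fit without the other. The GC offset was a lowess curve (span 0.3) on transcript GC content, for the 99.2% of tested genes found in GENCODE. In each library it was fitted to the log2 CPM of a gene minus its mean over all libraries. Such an offset can also take out a difference between the groups that is ordered by GC content.

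Members and lists were chosen with earlier results of these data known. All members are named with values. Standard errors and p-values are given for members at an unadjusted p of 0.05 or less and for the largest difference of each functional group. From the other lists, genes at an unadjusted p of 0.05 or less and all CDK inhibitors are named. SGO1, SGO2 and KNL1 were matched by gene identifier. The values of some listed genes are not reported here. The alternatives tried were DESeq2's size factors, 2 other filters on low counts, the DESeq2 1.42.0 Wald test, edgeR's exact test, the replicate number as a block, the GC offset with and without that block, library totals in place of TMM, and leaving out each library.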

Additional observations from a re-analysis of the deposited data

How the results depend on the processing

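Of the 43 genes, 28 kept their direction under every alternative and 15 reversed under at least 1, each of those 15 when 1 library was left out. Leaving out a control leaves 1 control library, assumed to vary like the USP12 libraries. Called higher at an adjusted p under 0.05 were 0 of the 43, in the main fit and in every alternative that kept all 4 libraries. Called lower were 0 in the main fit, and 0 or 1 in the alternatives that kept all 4 libraries. MKI67 was the 1 gene called lower with no filter on low counts, the DESeq2 Wald test, edgeR's exact test, the replicate block and the replicate block with the GC offset, at adjusted p between 0.00461 and 0.0495. It was also called without either control (0.00151 and 0.0109), and was not called with DESeq2's size factors, the stricter filter, the GC offset alone or without either USP12 library (0.173 to 1.00). At an unadjusted p of 0.05 or less, the 4 higher genes became 10 with the GC offset, with or without the block, and 0 to 31 with 1 library left out. The 2 lower genes became 0 to 7. The median log2 fold change of 0.45 was 0.27 to 1.00 with 1 library left out and 0.43 to 0.61 under the other alternatives. The 23 genes above both controls became 22 with DESeq2's size factors and 21 with library totals.

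Over all genes, 0 were called higher and 0 lower. The counts were 167 and 361 with no filter, 133 and 273 with DESeq2, 167 and 262 with the exact test, 153 and 251 with the block, 6 and 13 with the GC offset and 57 and 110 with block and offset. With 1 library left out they were 12 to 2550 and 28 to 2612. Of the other cell cycle genes, 0 were called, 2 with no filter, with DESeq2 and with the exact test, 1 with the block, and 0 to 76 with 1 library left out. An infinite prior degree of freedom was estimated with the block, with no filter and without either USP12 library, so that a gene's own spread did not enter those tests. The labels number the libraries of both groups 1 and 2, but same-numbered libraries deviated together only weakly (correlation across genes 0.152), and the replicate block is given here only.

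Among single genes, CDT1 was 0.17 with the GC offset and 0.17 with block and offset. UBE2C was -0.006 with DESeq2's size factors, -0.006 with its Wald test, -0.049 with the GC offset and -0.058 with block and offset. KIF11 was 0.19 with the block and 0.087 with block and offset, and CENPF was 0.045 with the block. With 1 library left out, the log2 fold change ran from -0.27 to 0.58 for AURKB, -0.24 to 1.86 for CCNA2, -0.015 to 1.00 for CCND1, -0.42 to 0.78 for CCND3, -0.31 to 1.69 for CDC25A, -0.11 to 1.502 for CDC6, -0.43 to 1.00 for CDK1, -0.63 to 0.41 for CDT1, -1.24 to 1.15 for CENPE, -0.95 to 1.10 for CENPF, -0.86 to 1.32 for KIF11, -0.40 to 0.19 for MAD2L1, -0.60 to 0.074 for RRM2, -0.71 to 0.53 for TOP2A and -0.15 to 0.18 for UBE2C. The cause was not tested. CCNE2 had no value with at least 10 counts in every library. The other 42 genes had at least 10 counts in every library.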
